A study of Mus musculus with 12 samples.

Results

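OCT4 binding in mouse embryonic stem cells (mESCs) was mapped by ChIP-seq, which isolates the crosslinked DNA held by a protein with an antibody, here one against OCT4A, and reads its ends. The regions described here are the very wide autosomal OCT4 peaks. They were chosen by width alone, as the peaks on chromosomes 1 to 19 that spanned at least 1500 bp in the deposited consensus list. Of 51499 autosomal peaks, 1150 met the rule, which is 2.23% of them, and 50349 were narrower. The whole list held 53675 peaks, 2139 of them on the X and 37 on the Y chromosome.

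All cells were of the female line iXist-ChrX-Cast, a Dom/129S x Cast hybrid in which doxycycline drives Xist from a TetOn promoter on the Cast X chromosome, and both conditions carried this allele. The 4 OCT4 libraries were 2 replicates without doxycycline (day 0) and 2 replicates kept as mESCs for 6 days with doxycycline at 1 µg/ml (day 6), with 4 input libraries from the same days. YY1 libraries of the series were not used here. The cells grew in serum and LIF on SNLP feeder fibroblasts, which were taken away by pre-plating before the experiment, and the chromatin was crosslinked with disuccinimidyl glutarate and formaldehyde and sonicated. Both days of a single line entered 1 list, so an effect of day on the autosomal peaks cannot be told apart here.

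The list gives positions only, and its score column is 0 throughout. It therefore holds no peak height, no summit, no depth and no value per library for any autosomal peak, and the counts, shares and medians below are descriptions of 1 pooled list. Intervals in brackets are 95% Wilson intervals, which cover counting error only, since neighbouring peaks and peaks of one gene are not independent. Of the stem cell markers Pou5f1, Nanog, Sox2, Esrrb, Klf4 and Zfp42, each had at least 1 OCT4 peak whose nearest start was its own. So did 10 of the 20 fibroblast markers, beside 20821 of all 46709 annotated autosomal genes. A peak is binding and not expression, so it cannot show which cells were present.

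OCT4, encoded by Pou5f1, is a POU-domain transcription factor that is required for pluripotency. It binds the octamer ATGCAAAT, often beside SOX2 at a joint element in which a SOX site directly precedes the octamer. In embryonic stem cells its sites lie largely in distal enhancers, and dense clusters of such enhancers, known as super-enhancers, surround genes of the pluripotency network. CpG islands are GC-rich stretches at many promoters that keep the CpG dinucleotides lost from most of the genome. Peak callers draw 1 interval around adjoining signal, so a wide interval may hold several sites.

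Sequences that stand for the kinds of wide peak described below were read from the reference genome (RefSeq GRCm38.p6, the assembly of mm10, coordinates counted from 1). The first set shows every octamer, in capitals, in the wide peaks assigned to genes of the pluripotency and non-coding RNA lists, because OCT4 itself recognises this element.
Tfcp2l1, chr1:118625545-118625574, plus strand: tattcccgtctATGCAAATcacatacattt
Esrrb, chr12:86471035-86471064, minus strand: accctagtgatATGCAAATgtatggaaaaa
Esrrb, chr12:86479029-86479058, plus strand: cttccttggaaATGCAAATttagggtccta
Esrrb, chr12:86504838-86504867, plus strand: gcatgaatgggATGCAAATcttccctctat
Klf5, chr14:99340249-99340278, minus strand: ttgtgaagtttATGCAAATgatgaaagaag
Jam2, chr16:84779239-84779268, minus strand: actgaattgatATGCAAATaaaagactggg
Tdgf1, chr9:110947981-110948010, minus strand: cacagcgaaacATGCAAATccaaacaacca
Neat1, chr19:5842518-5842547, plus strand: ttttcacaaatATGCAAATaaacagggttt

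The second set shows the joint element, searched on both strands as ATTGT, any base and ATGCAAA and given in capitals, in the 5 wide peaks that held it.
Gm25360 near Mreg, chr1:72229160-72229189, minus strand: attgtgtaATTGTTATGCAAAaatgttggc
Hnrnpu, chr1:178338257-178338286, plus strand: cataggcgATTGTTATGCAAAggtggtgtt
Pipox, chr11:77894046-77894075, plus strand: gctcaattATTGTCATGCAAAtggcgcctt
Gm30562 near Sox9, chr11:112811259-112811288, plus strand: tttggctcATTGTCATGCAAAtgaattcag
Nrarp, chr2:25180695-25180724, plus strand: gagcgtctATTGTTATGCAAAtataagaac

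The third set shows 240 bases of each of 2 wide peaks with octamer arrays, with octamers of either strand in capitals.
Il3ra, chr14:14354311-14354550, plus strand: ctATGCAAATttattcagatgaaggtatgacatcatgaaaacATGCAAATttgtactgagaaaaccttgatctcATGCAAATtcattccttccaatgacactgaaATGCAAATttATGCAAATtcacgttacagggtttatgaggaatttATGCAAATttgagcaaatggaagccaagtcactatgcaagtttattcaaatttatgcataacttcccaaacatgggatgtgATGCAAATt
Crlf2, chr5:109558262-109558501, minus strand: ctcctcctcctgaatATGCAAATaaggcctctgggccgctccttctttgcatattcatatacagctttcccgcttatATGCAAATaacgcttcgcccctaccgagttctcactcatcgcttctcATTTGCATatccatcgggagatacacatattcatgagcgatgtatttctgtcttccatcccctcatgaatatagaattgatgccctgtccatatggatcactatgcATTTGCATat

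The last set comes from wide peaks whose sequence recurs elsewhere in the genome. Members of 3 groups aligned to each other over at least 1000 bp at 90% identity or more. For the first group, of 20 members, the octamer is in capitals, and for the repeat units of the other two groups, of 17 and 10 members, and of a pair of single tandem repeats the CpG dinucleotides are in capitals.
Group of 20, commonest form, chr1:44822421-44822450, plus strand: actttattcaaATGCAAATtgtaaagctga
Group of 20, second form, chr13:113722306-113722335, minus strand: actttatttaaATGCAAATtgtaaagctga
Group of 17, unit in an intron near Sult2a3, chr7:14087272-14087483, plus strand: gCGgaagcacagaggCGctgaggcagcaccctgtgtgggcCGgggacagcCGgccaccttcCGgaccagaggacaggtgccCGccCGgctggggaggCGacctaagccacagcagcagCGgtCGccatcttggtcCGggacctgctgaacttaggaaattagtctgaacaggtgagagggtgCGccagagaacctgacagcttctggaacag
Group of 10, intergenic unit, chr4:21382393-21382600, plus strand: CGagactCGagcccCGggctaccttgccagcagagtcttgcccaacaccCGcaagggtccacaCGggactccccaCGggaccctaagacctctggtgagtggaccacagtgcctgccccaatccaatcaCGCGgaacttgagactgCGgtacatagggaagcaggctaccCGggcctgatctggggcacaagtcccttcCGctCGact
Klhdc4 intron, chr8:121824632-121824682, plus strand: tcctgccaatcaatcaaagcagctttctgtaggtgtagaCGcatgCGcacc
Near Gm22973, chr12:59037097-59037191, plus strand: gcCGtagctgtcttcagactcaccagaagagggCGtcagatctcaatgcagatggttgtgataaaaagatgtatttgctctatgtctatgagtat

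The wide peaks had a median width of 1774 bp, with quartiles of 1612 and 2030 bp, against a median of 415 bp for narrower peaks. Their widths were the criterion of choice and are given as a description. They made up 8.05% of all bases in autosomal peaks. Only 323 reached 2000 bp, 36 reached 3000 bp and 5 reached 4000 bp. The histogram of widths fell smoothly through the threshold, with no gap or second mode there. The 5 peaks just inside spanned 1501 bp near Mir6896, Cacna1c and Gm33857, and 1502 bp near Nrros and Fbxo31. The 5 just outside spanned 1499 bp near Gas5 and Smchd1, and 1498 bp near Trim17, Pdzd2 and Sirpa.

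**Figure D1:**
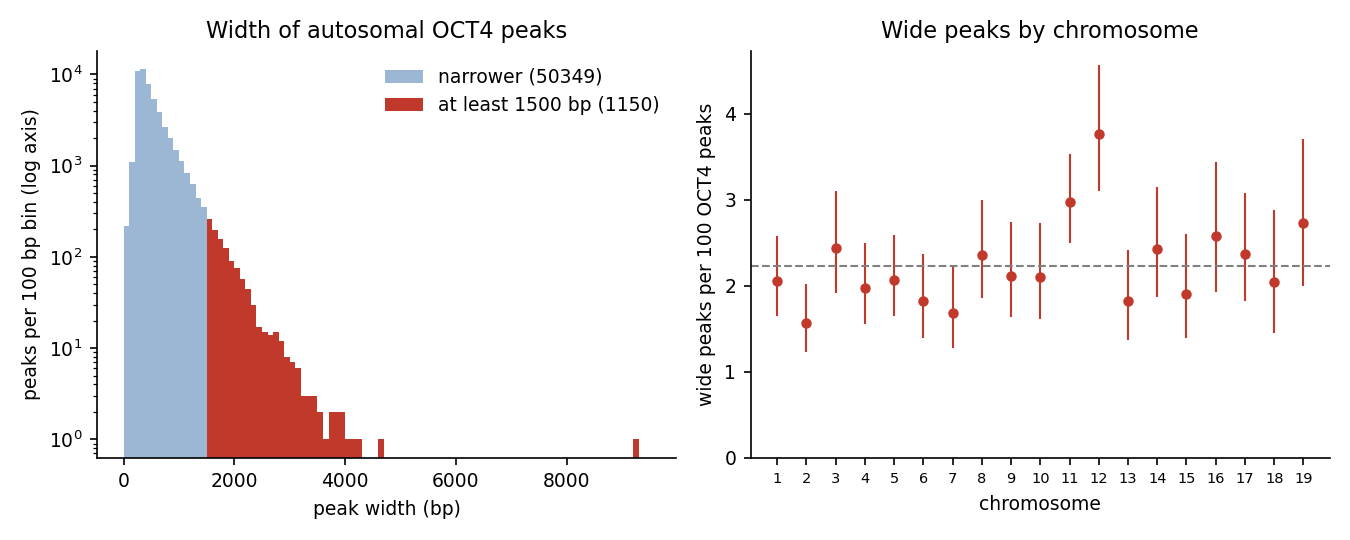
Left, histogram of the widths of autosomal OCT4 peaks in 100 bp bins, with the number of peaks on a log axis and the 1150 wide peaks in red. Right, wide peaks per 100 OCT4 peaks on each autosome with 95% Wilson intervals and the autosomal value of 2.23 as a dashed line. Chromosomes 11 and 12 lie above that line with their whole interval, and chromosomes 2 and 7 lie below it.

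Every autosome held wide peaks, from 32 on chromosome 18 to 124 on chromosome 11. Relative to the number of OCT4 peaks, chromosome 12 had the highest density, with 3.77 wide peaks per 100 peaks (3.11 to 4.57). Chromosome 11 followed with 2.98 (2.50 to 3.54), although it also had the most OCT4 peaks per Mb, 34.1 against 20.9 over all autosomes. The lowest densities were 1.57 on chromosome 2 (1.23 to 2.02) and 1.69 on chromosome 7 (1.28 to 2.22). The other 15 intervals contained the autosomal value of 2.23. When the autosomes were cut into windows of 1 Mb, 460 windows held a single wide peak, 175 held 2 and 1 held 12. That window lay on chromosome 12 between 86 and 87 Mb, held 90 OCT4 peaks in all and included the stretch from Esrrb to Cipc as well as a wide peak at Gm805. The next densest windows held 6 wide peaks each, and there were 7 of them.

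The widest autosomal peak of the list lay over Flg (chr3:93282564-93291810, 9247 bp), which encodes the epidermal protein filaggrin and is not a gene of the stem cell programme. Its midpoint fell in an annotated intron, 66.6% of its bases were G or C, and it held neither an octamer nor a SOX element (CATTGT). Shifted by 1515 bp, 57.2% of its bases matched themselves, so part of the interval is internally repeated. The next widest interval covered an intron of Klhdc4 (chr8:121822326-121826988, 4663 bp), was repeat-masked over 100% of its length and consisted of the 51 bp unit printed above.

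Among the other widest peaks, several covered promoters of regulators. The Brd2 peak (chr17:34118843-34123041, 4199 bp) spanned the start of a gene for a bromodomain protein that binds acetylated histones. Peaks over the starts of Irf2bpl (3920 bp), of the histone methyltransferase gene Nsd1 (3851 bp) and of the chromatin reader gene Ing1 (3730 bp) had GC contents of 61.9%, 68.4% and 66.5%. The peak over the start of Sall4, a zinc-finger factor of the pluripotency network, was 3407 bp wide (chr2:168764083-168767489). A 4226 bp peak covered a start of the non-coding gene 2410080I02Rik, whose nearest protein-coding neighbour is Klf9. Starts also lay inside the peaks named for Gm36470 near Cdk6 (3582 bp), AI463170 near Plekhg3 (3473 bp) and Sulf2 (3302 bp).

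Others of the 20 widest were distal. The intronic Esrrb peak (chr12:86501187-86505026) was 3840 bp wide and lay 13.0 kb from the nearest start of this orphan nuclear receptor, a factor of naive pluripotency. A peak in an intron of Cdh1, which encodes E-cadherin, was 3470 bp wide and had 8 other OCT4 peaks within 12500 bp. A Cenpv intron held a peak of 4007 bp, with the next peak 180 bp away. Intergenic peaks lay near Ssr2 (3661 bp), Gm30657 and Med13l (3356 bp), and B330016D10Rik and Fblim1 (3393 bp). The intronic Il3ra peak of 3525 bp is the octamer array shown above. The remaining 2 of the 20, named for Gm35261 (3931 bp) and Rpl17-ps10 (3736 bp), belonged to the third group of recurring sequences.

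The comparison with narrower peaks first asked whether wide peaks lay at promoters. A peak counted as a promoter peak when any base lay within 500 bp of a RefSeq transcription start. This was so for 624 wide peaks, 54.3% (51.4 to 57.1), against 12041 narrower peaks, 23.9% (23.5 to 24.3). A start lay inside 51.1% of wide and 17.3% of narrower peaks. A wide interval has more bases that can reach a start, so the share was also taken from the midpoint, which does not grow with width. It was then 40.0% (37.2 to 42.9) for wide and 22.1% (21.7 to 22.4) for narrower peaks. Both measures placed wide peaks at promoters more often than the narrower peaks as a whole.

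The difference did not begin at 1500 bp. Peaks of 1000 to under 1500 bp already had a promoter share of 49.7% (48.0 to 51.3), and their midpoint share of 44.8% (43.2 to 46.5) was above that of the wide peaks. Over increasing widths, the promoter share was 16.6% below 250 bp, 16.2% at 250 to 499 bp, 33.9% at 500 to 999 bp, 53.9% at 1500 to 1999 bp and 55.7% at 2000 to 2999 bp. Among the 36 peaks of 3000 bp or more, 18 were promoter peaks by any base and 16.7% (7.87 to 31.9) by midpoint. From the class just under the threshold to the wide peaks, the share thus rose by any base and fell by midpoint. The midpoint of a very wide peak can lie over 500 bp from a start that the peak covers. How much of the low midpoint share of the widest class comes from length was not tested.

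**Figure D2:**
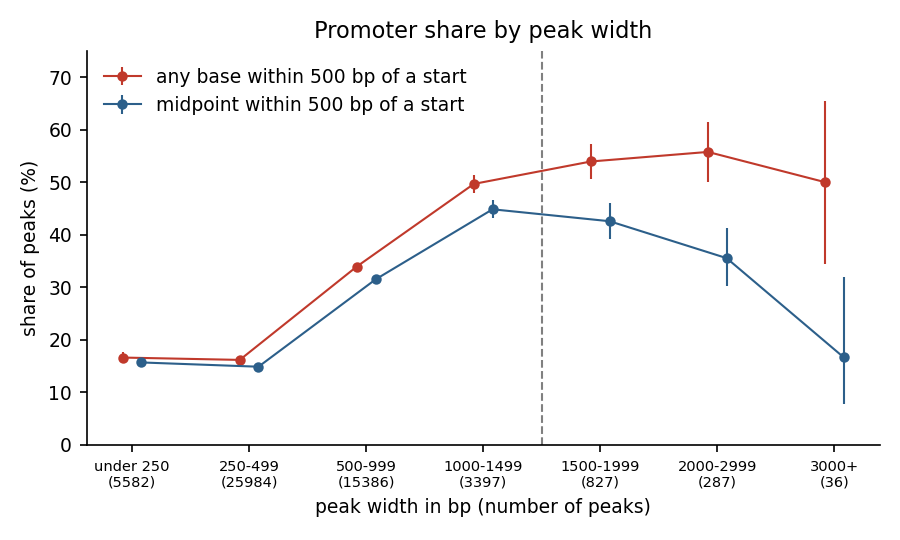
Share of autosomal OCT4 peaks at promoters for 7 classes of peak width, counted from any base of the peak (red) and from its midpoint (blue), with 95% Wilson intervals. The dashed line marks 1500 bp. The red series is near 50% from 1000 bp upward, and the blue series falls from 44.8% at 1000 to under 1500 bp to 16.7% at 3000 bp or more.

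By the annotation at the midpoint, 439 wide peaks were intergenic (38.2%), 384 lay in introns (33.4%), 201 in 5′ UTRs (17.5%), 64 in non-coding exons (5.57%), 47 in coding exons (4.09%) and 15 in 3′ UTRs (1.30%). Narrower peaks were more often intronic (41.4%) and less often in 5′ UTRs (9.76%). This did not begin at 1500 bp, since peaks of 1000 to under 1500 bp had 32.6% in introns and 19.8% in 5′ UTRs. The 526 wide peaks outside promoters lay a median of 12134 bp from the nearest start, and the 38308 narrower ones 14783 bp. Over 50 kb from any start lay 77 wide peaks, 6.70% (5.39 to 8.29), and 14.5% (14.2 to 14.8) of narrower peaks.

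Promoter peaks of this width reached far to both sides of the start. In the 588 with a start inside, the peak extended a median of 850 bp upstream and 936.5 bp downstream of the start nearest its midpoint, and 316 of them (53.7%) reached further downstream. Narrower peaks with a start inside extended 264 bp and 361 bp, and 61.6% reached further downstream. Starts of at least 2 genes lay inside 141 wide peaks, 12.3% (10.5 to 14.3), and starts on both strands, as at divergent promoters, inside 134 (11.7%). These shares were 9.21% and 9.01% at 1000 to under 1500 bp and 2.50% and 2.43% over all narrower peaks. A wider interval covers more starts, and how much of these shares comes from length alone was not tested.

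The base composition of the wide peaks followed their position. Their median GC content was 55.5% against 49.2% in narrower peaks, and their median ratio of observed to expected CpG was 0.55 against 0.27. Wide promoter peaks had 62.6% GC and a CpG ratio of 0.76, close to the 63.8% and 0.77 of narrower promoter peaks. Wide distal peaks had 48.3% GC and a ratio of 0.25, against 47.2% and 0.21 in narrower distal peaks. Peaks of 1000 to under 1500 bp had medians of 55.9% and 0.55 over all positions. A CpG ratio of at least 0.6, which is usual for CpG islands, was found in 491 of the 624 wide promoter peaks (78.7%) and in 38 of the 526 distal ones (7.22%). The shares were 83.1% and 9.42% for peaks of 1000 to under 1500 bp and 73.8% and 6.51% for all narrower peaks, so the wide values lay between them.

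Octamers were counted on both strands. The wide peaks held 327, which is 0.149 per kb, against 0.205 per kb in narrower peaks and 0.0897 per kb over all autosomes. By position the order differed, with 0.114 per kb in wide and 0.0804 in narrower promoter peaks, and 0.190 and 0.258 in distal peaks. One peak, over Il3ra, held 48 of them, and without it the density in wide peaks was 0.127 per kb. An octamer was found in 232 wide peaks (20.2%) and in 9.18% of narrower peaks, a comparison in which wide intervals have more bases to search. In windows of equal length, the 500 bp around the midpoint held an octamer in 4.52% of wide, 4.80% of 1000 to under 1500 bp and 8.71% of narrower peaks, beside 4.28% of 500 bp tiles of the autosomes. Of 32851 promoters of 300 bp in the RefSeq table, a shorter sequence than the 500 bp windows, 1.74% held one. The share at the centre of wide intervals was thus close to that of genomic tiles, and the share at the centre of narrower peaks was above it. Most letters of the octamer are A or T, and these shares were not matched for base composition. The central 500 bp had a median GC content of 55.5% in wide and 48.8% in narrower peaks. The closeness to genomic tiles therefore does not show that octamers were at a background level in wide peaks. The list gives no summit, so the centre need not be where the signal was highest.

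In distal positions the central octamer share was 4.37% for wide and 10.4% for narrower peaks, and at promoters 4.65% and 3.35%. The SOX element showed the same split, with 0.362 per kb in wide and 0.275 in narrower promoter peaks, and 0.564 and 0.877 in distal peaks. Over all positions it came to 0.455 and 0.697 per kb, and the wide peaks hold the larger share of promoters. The joint element occurred in 5 wide peaks (0.435%) and 72 narrower peaks (0.143%), or 2.28 and 2.87 per Mb of peak sequence. At promoters this was 3.37 per Mb in wide peaks (4 peaks) and 0.668 in narrower peaks (5 peaks), and in distal positions 0.991 (1 peak) and 3.81 (67 peaks). Of the 5, those over Hnrnpu, Pipox, Gm30562 and Nrarp had a start inside, and only the Gm25360 peak near Mreg was distal. Nrarp encodes an inhibitor of Notch signalling, and Hnrnpu an abundant RNA-binding protein. These counts are of exact letters and say nothing of sites that differ from them.

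Wide peaks lay closer to other OCT4 peaks than narrower peaks did. The gap to the nearest other peak had a median of 2920 bp (quartiles 832 and 10502) for wide and 6857 bp (1712 and 21011) for narrower peaks. Measured between midpoints, which adds the bases from each midpoint to the edge of its interval, the medians were 4192 and 7392 bp. Another peak lay within 12500 bp of 893 wide peaks, 77.7% (75.2 to 80.0), and of 63.6% (63.2 to 64.0) of narrower peaks. At least 4 other peaks lay within that distance of 287 wide peaks (22.5% to 27.5%) and of 10.0% of narrower peaks. Peaks of 1000 to under 1500 bp were intermediate, with a median gap of 4659 bp and 71.5% within 12500 bp. Clustering was seen at both positions, since the gap was 3772.5 bp for promoter and 2405.5 bp for distal wide peaks, against 6463 and 7006 bp for their narrower counterparts.

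**Figure D3:**
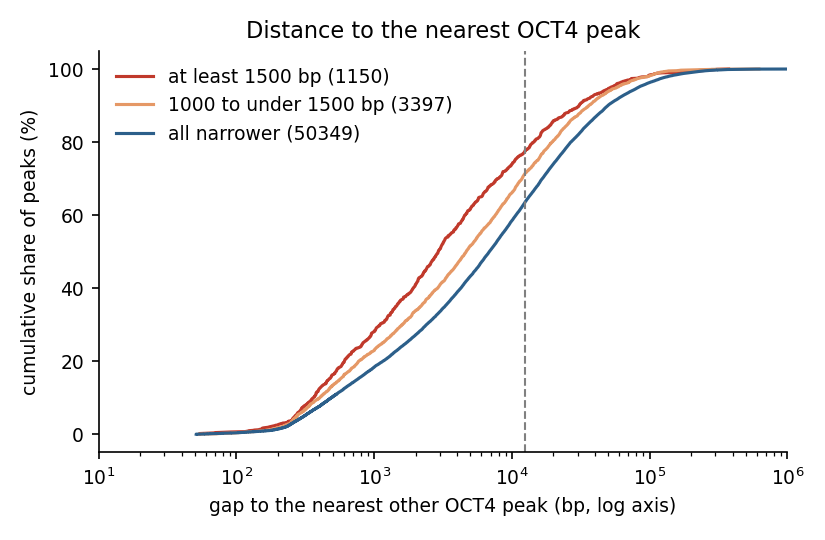
Cumulative share of autosomal OCT4 peaks by the gap to the nearest other OCT4 peak on a log axis, for the 1150 wide peaks, the 3397 peaks of 1000 to under 1500 bp and all 50349 narrower peaks. The dashed line marks 12500 bp, where the curves stand at 77.7%, 71.5% and 63.6%.

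Wide peaks also lay near each other more often than narrower peaks lay near a wide one. Another wide peak lay within 12500 bp of 107 wide peaks, 9.30% (7.76 to 11.1), and a wide peak lay that near 4.49% (4.31 to 4.67) of narrower peaks and 6.71% (5.92 to 7.60) of peaks of 1000 to under 1500 bp. Within 50 kb the shares were 20.8%, 11.8% and 15.4%. Peaks separated by at most 12500 bp were then joined into domains. The 1150 wide peaks fell into 1052 of 29058 domains, 80 of which held at least 2 wide peaks and 13 at least 3. Domains with a wide peak had a median of 3 OCT4 peaks and a span of 11132 bp, and 24.4% of them consisted of the wide peak alone. Domains without one had a median of 1 peak and 65.4% were single peaks. A domain that holds a wide peak is wider by construction, and a domain of many peaks has more chances to hold one. Spans, peak counts and single-peak shares of domains are therefore not read as clustering.

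The domain with the most bases in wide peaks lay around Irf2bpl and Cipc on chromosome 12 (chr12:86864284-86950860) and held 25 OCT4 peaks. Its 4 wide peaks were the Irf2bpl promoter peak of 3920 bp, intergenic peaks of 1674 bp near Gm26698 and 2695 bp near Cipc, and a Cipc intron peak of 1812 bp. Cipc encodes a CLOCK-interacting protein. The domain before it (chr12:86761223-86837056) held 19 peaks, 4 of them wide (2089, 1927, 1790 and 2068 bp), around the non-coding gene Gm32806. Esrrb itself lay in a domain of 18 peaks (chr12:86455033-86526633) with 3 wide intronic peaks of 1719, 1641 and 3840 bp, each of which held a single octamer. From 50 kb before Esrrb to 50 kb past Cipc there were 79 OCT4 peaks, 11 of them wide, and their midpoints spanned 640 kb.

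**Figure D4:**
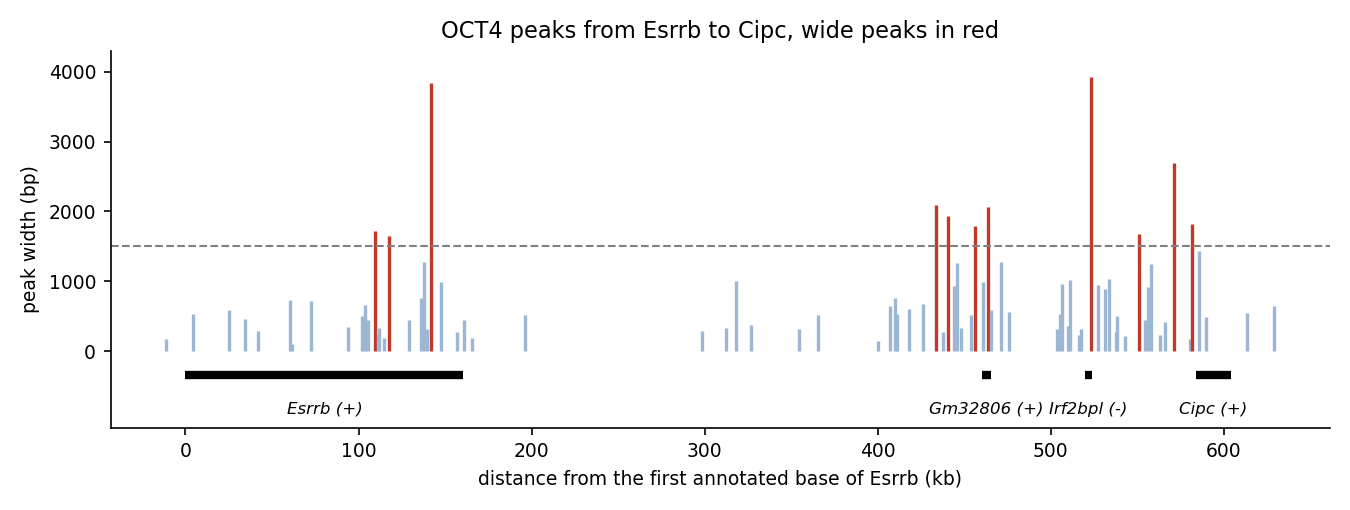
OCT4 peaks from 50 kb before Esrrb to 50 kb past Cipc on chromosome 12. Each is drawn at its midpoint as distance in kb from the first annotated base of Esrrb, and line height gives the peak's width in bp. The 11 wide peaks are red, the dashed line marks 1500 bp, and black bars show Esrrb, Gm32806, Irf2bpl and Cipc with their strand. Wide peaks stand in 3 clusters, inside the 3′ part of Esrrb, around Gm32806 and from Irf2bpl to Cipc.

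The second largest domain (chr11:62480499-62560849) held 18 peaks over Pigl, Cenpv and Ubb, a ubiquitin gene. Its wide peaks measured 1510 bp in a Pigl intron, 4007 bp in the Cenpv intron, 1919 bp over the Cenpv start and 2176 bp over the Ubb start. The third was the Flg peak with a single narrow neighbour, which ranks high through 1 interval. A domain at chr3:121530517-121602542 around the non-coding genes Gm40135, Gm33547 and Gm33485 held 4 wide peaks among 14, and the histone gene cluster at chr13:23738800-23776649 held 4 among 11, over H1f2, H2bc3, H3c2 and H4c1. Around Neat1, the non-coding RNA that scaffolds paraspeckles, 3 of 9 peaks were wide (chr19:5830550-5850478), and downstream of Klf5, 3 of 8 were (chr14:99323367-99355854), the farthest of which lay 55174 bp from the start.

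For the nearest genes, a peak was assigned to the gene with the nearest RefSeq start within 50 kb. This placed 1073 wide peaks with 1016 genes. The nearest start belonged to a protein-coding gene for 815 wide peaks (70.9%) and to a long non-coding RNA for 282 (24.5%). For 335 wide peaks the nearest protein-coding gene was a different one. There were 51 genes with 2 or more wide peaks and 5 with at least 3, namely Gm32806 with 4 and Esrrb, Neat1, B330016D10Rik and Gm30296 with 3 each. Assignment by distance does not show which gene a peak regulates.

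Among pluripotency transcription factors, all 30 genes had an OCT4 peak and 11 had a wide one. Their 14 wide peaks were 7.04% of the 199 peaks assigned to them, against 2.43% over all assigned autosomal peaks. At promoters, wide peaks covered the starts of Sall4 (3407 bp), Mycn (2608 bp), Sox2 (2528 bp), Rarg (2004 bp) and Mycl (1886 bp). Sox2 encodes the partner of OCT4 at the joint element, Mycn and Mycl are MYC-family growth regulators, and Rarg is a retinoic acid receptor. The Sox2 peak (chr3:34648778-34651305) was centred 46 bp downstream of the start.

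The distal wide peaks of the list lay at other core factors. The Nanog peak of 1977 bp (chr6:122702025-122704001) was centred 4.48 kb upstream of the start of this homeobox factor. The Klf2 peak of 1597 bp lay 14.9 kb downstream, and the Klf5 peaks of 2034 and 2043 bp lay 26.6 and 41.3 kb downstream of genes for related zinc-finger factors. A peak of 1520 bp lay 1.81 kb upstream of Tfcp2l1, and one of 2058 bp lay 8.15 kb downstream of the Otx2 start. Both of these genes encode transcription factors, the first of the naive state and the second of the exit from it. The 3 Esrrb peaks complete the list. Octamers were present in 5 of the 14, among them all 3 Esrrb peaks, beside 20.2% of all wide peaks. This difference was not tested. Pou5f1 itself had only 1 assigned peak, of 376 bp, and the widest peaks of Klf4 and Zfp42 measured 558 and 984 bp.

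Of 20 other pluripotency-associated genes, all had a peak and 11 had a wide one, with 13 wide peaks among 100 (13.0%). The share over all assigned peaks was 2.43%, and the difference was not tested. Over starts lay those of Rif1 (2607 bp), of the Nodal co-receptor gene Tdgf1 (2498 bp), of the TGF-β family ligand gene Gdf3 (2276 bp) and of Trim71 (2200 bp). Upp1 (2142 bp), Lin28a, which encodes a let-7-binding protein (1592 bp), and Fbxo15 (1551 bp) complete the promoter group. Fgf4, the main FGF ligand of these cells, had wide peaks of 1850 bp centred 3.35 kb upstream and of 1507 bp centred 3.05 kb downstream of its start, the latter in its 3′ UTR. Distal peaks also lay near the adhesion gene Jam2 (1785 and 1612 bp), Dppa5a (2140 bp) and the glucose transporter gene Slc2a3 (1885 bp).

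Among 43 annotated non-coding RNA genes of the list, 22 had a peak and 4 had a wide one. These were Neat1 (2699, 2570 and 1632 bp), Platr10 (2146 bp), Lncenc1 (1883 bp) and Malat1 (1784 bp). The Malat1 peak was centred 7.0 kb upstream of the start of this nuclear-speckle RNA. The 6 wide peaks were 7.32% of the 82 assigned to the list, beside 2.43% over all assigned peaks, a difference that was not tested.

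Of the signalling genes, all 49 had a peak, 21 had a wide one, and 23 of 213 peaks were wide (10.8%). The widest covered the starts of the receptor gene Notch1 (3068 bp), of the ERK pathway inhibitors Spred2 (2723 bp) and Spred1 (2522 bp), and of the ligand gene Wnt3 (2352 bp). Of 55 early lineage transcription factors, 47 had a peak and 4 had a wide one (4.12% of peaks), at Sox17 (2147 bp), Cdx2 (1659 bp), Pax2 (1632 bp) and Hhex (1579 bp), which act in endoderm, trophectoderm, kidney and foregut, respectively. Over all assigned peaks 2.43% were wide, and of all 12665 autosomal promoter peaks 624 were. Promoter peaks made up 13 of the 23 wide peaks at signalling genes. Whether either list differs from these shares was not tested.

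Of 56 chromatin regulators, each had a peak and 10 had a wide one (5.37% of peaks). The widest were at Brd2 (4199 bp), Tet2 (2539 bp), Jarid2 (2453 bp) and Kdm6b (2403 bp), which encode a bromodomain protein, a 5-methylcytosine dioxygenase, a Polycomb cofactor and an H3K27 demethylase. Cell cycle and growth genes had wide peaks at 4 of 33 genes, Mcl1 (1821 bp), Pim1 (1757 bp), Trp53 (1750 bp) and Mybl2 (1722 bp), or 5.43% of their peaks. Over all assigned peaks the share was 2.43%, which is not matched for position. Of the 11 wide peaks at chromatin regulators 8 were promoter peaks, and of all 12665 autosomal promoter peaks 624 were wide. Whether these lists differ from that background was not tested.

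Highly expressed housekeeping genes also had wide peaks. Of 41 such genes 37 had a peak and 12 had a wide one, and 14 of 107 peaks were wide (13.1%), 11 of them at promoters. The widest lay at Ptma (2809 bp), the splicing factor gene Srsf2 (2444 bp), Gapdh (2374 bp) and Hnrnpu (2192 bp). Of 80 ribosomal protein genes 67 had a peak, and 0 of their 103 peaks were wide, as were 0 of 20 peaks at fibroblast markers. The share over all assigned peaks was 2.43%, and the difference of these small counts from it was not tested. Among 75 histone genes, 61 had a peak and 10 had a wide one (11.1% of peaks), all at promoters. They ran from 1505 to 2976 bp and were widest at H2ax (2976 bp), H2ac21 (2362 bp), H3c11 (2248 bp) and H3c15 (2178 bp). Of the 10, 4 held an octamer, beside 16.7% of all wide promoter peaks, a difference that was not tested. Over all 46709 annotated autosomal genes, 20821 had a peak and 1016 a wide peak. That is 2.18% of the annotated genes, a lower share than among the genes with a peak. The lists count only genes that are well studied, and no test was run between lists.

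Some wide peaks consisted largely of repeat-masked sequence, in a share close to that of narrower peaks. Repeat masking covered at least 90% of 55 wide peaks, 4.78% of them, beside 5.44% of narrower peaks. Of these 55, only 3 were at promoters and 46 belonged to the 3 groups of recurring sequence. In all, 60 wide peaks (5.22%) aligned to another wide peak at the stated length and identity, 47 of them in the 3 groups and the rest in sets of at most 3. These alignment limits were set after the data had been seen, and narrower peaks were not searched for such groups.

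The first group held 20 wide peaks on 12 chromosomes, with a median identity of 97.7% over a median of 1842 bp. Their GC content ran from 42.9% to 48.0%, and the median masked share was 99.3%. Each of the 20 held exactly 1 octamer. The 30 bases around it were identical in 11 members (the commonest form above) and took the second form in 7 others. The octamer lay a median of 362.5 bp from the nearer end of the peak and thus off centre. The group included a peak of 1957 bp that lay 4979 bp from the nearest start of Wiz, a peak of 2114 bp that lay 14020 bp from that of Olig1, and a peak of 2787 bp over the start of Cyb5r1. For 17 of the 20, another OCT4 peak lay within 12500 bp.

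When the representative member was aligned to the whole genome, 192 autosomal copies of at least 1500 bp and 90% identity were found. An OCT4 peak of any width overlapped 143 of them (74.5%) and a wide one 20. Of the 85 copies at 95% identity or more, 74 (87.1%) had an OCT4 peak, including all 20 wide ones. Of the 107 less similar copies, 69 (64.5%) had a peak and none a wide one. An octamer was present in 162 copies, of which 75.3% had a peak, beside 70.0% of the 30 copies without one. OCT4 peaks thus overlapped most copies, where an overlap by any base was counted. Over the copies with a peak, the widest peak on each had a median of 486 bp. On those under 95% identity this median was 394 bp, so many copies were overlapped over only part of their length. All 20 wide peaks stood on copies at 95% identity or more to the representative, which was itself a wide peak and is among the copies. Read pairs from near-identical copies can be placed at more than 1 position, the study's methods name no filter on mapping quality, and the part of read placement in these peaks was not tested.

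The second and the third group were tandem arrays without any octamer. The 17 peaks of the second group had a median GC content of 65.4% and repeated a unit of 212 bp, with the best self-match at a multiple of 212 bp in 16 of them. The 10 peaks of the third group had 62.8% GC and a unit of 208 bp, with a multiple of it in 8. Both were isolated, since 15 of 17 and 10 of 10 had no other OCT4 peak within 12500 bp, unlike the wide peaks as a whole. Tandem units at the 5′ ends of young LINE-1 elements are known in the mouse genome, but no repeat library was matched here. Self-match of at least 80% was seen in 37 wide peaks in all (3.22%), 3.39% of peaks of 1000 to under 1500 bp and 1.16% of narrower peaks. Outside the groups these included the Klhdc4 intron, a 2790 bp peak near Gm22973 that repeated a 95 bp unit without a mismatch, and 2 peaks near Gm46110 with a 34 bp unit.

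**Figure D5:**
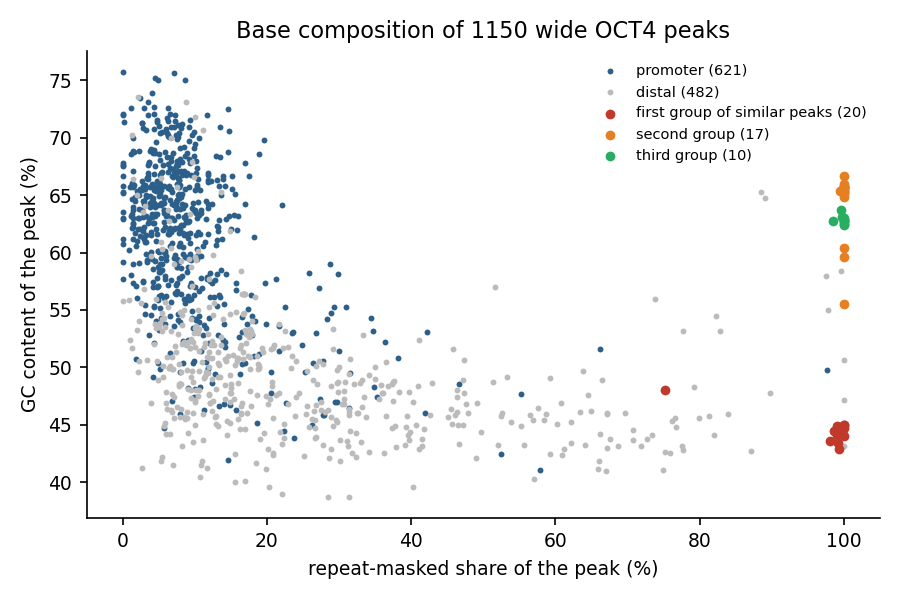
GC content against the repeat-masked share of each of the 1150 wide OCT4 peaks, both in percent. Promoter peaks (blue) lie mostly at low masked share and high GC, distal peaks (grey) spread to lower GC, and the 3 groups of recurring sequence, drawn in colours of their own, lie near full masking apart from 1 member of the first at 75.3%, the first at 42.9% to 48.0% GC and the others mostly above 60%.

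At least 6 octamers were found in 3 wide peaks, a pair of them at cytokine receptor genes. The Il3ra peak (chr14:14351708-14355232), in an intron of the interleukin-3 receptor α gene, held 48 octamers within 2760 bp, all on the plus strand, with a median spacing of 43 bp. Only 2.72% of it was repeat-masked. The Crlf2 peak (chr5:109555883-109559010, 3128 bp), over the start of the thymic stromal lymphopoietin receptor gene, held 9, of which 3 were on the plus and 6 on the minus strand. A peak at 4930526I15Rik (chr9:124423057-124426013, 2957 bp) held 6. No other wide peak held more than 4, at Prrc2a. Among narrower peaks the most was 8, in 1084 bp near Rab10os, and another held 7 in 576 bp near Xpo4. In all, 23 narrower peaks held 4 or more. Such counts grow with width and are not densities.

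Regions called in input chromatin had been subtracted from the list by the authors. Of the 843 input regions 741 were autosomal. A single wide peak (1638 bp, near Gm40468 on chromosome 8) lay within 1 kb of one, and 51 narrower peaks did. None of the wide peaks touched an input region.

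Values per library exist only for X-linked peaks, where 25 of 2139 peaks spanned at least 1500 bp (1.17%), 12 of them at promoters (48.0%, against 17.3% of narrower X-linked peaks). The allelic ratio, the share of allele-assigned fragments from the X chromosome that Xist coats, was deposited for 19 of the 25. Its median over these 19 was 0.444 and 0.496 in the day 0 replicates and 0.350 and 0.328 in the day 6 replicates. Over the 987 narrower X-linked peaks it was 0.500 in both day 0 replicates and 0.333 in both day 6 replicates. The day 6 medians were lower than both day 0 medians for either width. The study kept X-linked peaks for this table by filters of its own, and no test was run on 19 peaks in 2 libraries a day.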

How the data were processed

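OCT4 ChIP-seq and input libraries were made by the authors from iXist-ChrX-Cast cells on both days, 2 replicates each. According to the study's methods, read pairs were aligned with Bowtie2 to mm10 masked at strain-specific positions, duplicates were removed with Picard, peaks were called per library with MACS2 at a q-value of 0.01, regions covered in at least 2 libraries were kept, and input regions were subtracted. Versions given in the submitters' processing notes are Bowtie2 2.3.5.1 and deepTools 3.5.0. Consensus calling joins peaks that touch in different libraries and can widen an interval. The methods also name a lower and an upper width limit for consensus peaks, given for ATAC-seq, whose procedure the ChIP-seq peaks followed. Intervals wider than that limit would be missing from the list. The deposited lists hold interval positions in bp, with no depth, so the precision per peak is unknown. For X-linked peaks the authors deposited allelic ratios, each a fraction of allele-assigned fragments, and their columns were matched to libraries by factor, day and replicate. Columns of the YY1 table were not used.

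Wide peaks were rows with end minus start of at least 1500 bp on autosomes. This rule, the gene lists and the named members were chosen with earlier results of these data known, so nothing here is an independent test, and no test was run. Starts were those of RefSeq transcripts of GRCm38.p6 (curated and predicted), the nearest gene was taken within 50 kb, and promoters within 500 bp. Named were the 20 widest members, all members at genes of the first 3 of 11 lists, up to 4 for each other list, the 5 peaks on each side of the threshold and the members of the 3 largest domains. Members of other domains, the octamer arrays, joint elements, recurring groups and tandem repeats were named after their values were seen. Octamer, SOX element and joint element were searched as exact letters. Self-match is the highest share of bases equal to the base a fixed shift away, for shifts up to 700 bp (2000 bp for the widest peak). Similar members were found with blastn 2.17.0 (expect value 1e-20, and 1e-50 for the genome), without low-complexity filtering. Python 3.11.15, pandas 2.3.3, numpy 2.4.6, scipy 1.17.1, pysam 0.24.0, networkx 3.6.1 and matplotlib 3.10.9 were used. The interval and self-match functions were tested on simulated data. The alternatives were other width limits, promoter definitions, distances, windows and motifs.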

Additional observations from a re-analysis of the deposited data

How the results depend on the processing

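Of 30 alternatives, 16 left a value within its interval (within 1.5 times for a count) and 14 moved it. The number of wide peaks was 4547 at 1000 bp and 323 at 2000 bp. Their promoter share was 50.8% at 1000 bp, 51.1% for a start inside, 40.0% by midpoint and 48.7% with curated transcripts, against 22.1%, 17.3%, 22.1% and 20.6% of narrower peaks. The share with another peak nearby was 61.7% at 5 kb, 94.5% at 50 kb and 73.0% for peaks of at least 1000 bp, against 43.3%, 90.1% and 63.0%. The share with another wide peak nearby was 5.04% at 5 kb and 20.8% at 50 kb. Octamers per kb were 0.108 in the central 500 bp, 0.228 with A or T as the fifth base and 0.127 without the Il3ra peak, against 0.193, 0.353 and 0.205. In each of these comparisons, pooled over positions, wide peaks stayed on the same side of narrower ones. Leaving out the Il3ra peak or the 3 groups of recurring sequence was chosen after seeing the data, and without those groups the promoter share was 56.3% and the share with a peak nearby 79.2%. With protein-coding genes only, 892 genes had a wide peak, against 1016. No paired analysis was possible because the list pools its libraries, and for the same reason no library could be left out. Peak heights, replicate spread and depth are not in the list, which limits all statements to positions.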
